A study of Mus musculus with 2 samples.

Results

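The Sox genes encode transcription factors that bind DNA through a shared HMG box and are sorted into lettered subgroups by sequence. The 9 Sox genes described here were Sox2, Sox21, Sox9, Sox4, Sox11, Sox12, Sox5, Sox6 and Sox13, taken by name from 18193 genes on the array. Every probe set that the platform annotation assigned to 1 of these genes alone was used, which gave 35 probe sets. RNA came from whole mouse lungs at embryonic day 18, from homozygotes for Nmyc9a, a hypomorphic allele of Mycn, and from wildtype lungs. Each group was 1 Affymetrix array of pooled lungs. The sources used here do not give the strain, the sex of the embryos or the number of lungs in a pool. With 1 array per group nothing here has a replicate check or a p-value, and a pool shows nothing of the spread between animals.

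In the developing mouse lung, Sox2 marks the proximal epithelium that forms the conducting airways, and Sox9 marks the epithelial progenitors at the distal tips. Sox21 is a SoxB2 gene expressed in the Sox2-positive proximal epithelium. The SoxC genes Sox4, Sox11 and Sox12 are expressed in many immature tissues, and mouse embryos without Sox11 have underdeveloped lungs. The SoxD proteins Sox5 and Sox6 work with Sox9 in cartilage, Sox6 also acts in red cell maturation, and Sox13 is best known from T cells.

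The windows around the transcription starts of Sox21, Sox2, Sox11 and Sox4 are shown because Sox21 and Sox2 form the proximal pair and because Sox11 and Sox4 had the most measured probe sets. They are RefSeq sequences of build GRCm38.p6, each running from 250 bases before the start to 50 after it. Capitals mark CACGTG, the E-box bound by Myc proteins, CACGCG, a variant of it, or CATTGT, a Sox core motif, on either strand.
Sox21, chr14:118236981-118237280, minus strand: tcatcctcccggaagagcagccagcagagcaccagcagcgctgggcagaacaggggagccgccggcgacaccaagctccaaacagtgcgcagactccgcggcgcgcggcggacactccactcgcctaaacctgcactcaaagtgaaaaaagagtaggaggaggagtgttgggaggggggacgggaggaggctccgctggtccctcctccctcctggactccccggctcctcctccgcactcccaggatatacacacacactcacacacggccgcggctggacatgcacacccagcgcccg
Sox2, chr3:34649745-34650044, plus strand: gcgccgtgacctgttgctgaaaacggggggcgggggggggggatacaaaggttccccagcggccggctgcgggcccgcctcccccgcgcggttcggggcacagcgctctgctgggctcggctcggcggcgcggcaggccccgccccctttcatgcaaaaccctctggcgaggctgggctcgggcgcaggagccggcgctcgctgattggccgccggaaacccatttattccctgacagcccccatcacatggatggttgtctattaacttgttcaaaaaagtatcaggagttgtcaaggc
Sox11, chr12:27342669-27342968, minus strand: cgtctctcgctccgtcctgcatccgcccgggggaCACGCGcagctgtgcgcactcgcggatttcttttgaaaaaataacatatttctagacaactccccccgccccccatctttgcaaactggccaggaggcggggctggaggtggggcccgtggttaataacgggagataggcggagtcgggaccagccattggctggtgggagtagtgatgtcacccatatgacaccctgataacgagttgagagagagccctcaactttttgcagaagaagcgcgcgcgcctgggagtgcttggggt
Sox4, chr13:28953650-28953949, minus strand: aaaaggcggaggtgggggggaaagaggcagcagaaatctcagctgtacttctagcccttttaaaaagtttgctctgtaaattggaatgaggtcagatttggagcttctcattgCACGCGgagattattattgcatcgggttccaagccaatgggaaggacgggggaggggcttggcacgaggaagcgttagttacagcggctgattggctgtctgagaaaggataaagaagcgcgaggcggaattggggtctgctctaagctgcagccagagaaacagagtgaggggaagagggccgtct
A promoter window was found for 8 of the 9 genes, 13 windows in all with 6 for Sox6. Sox9 had no entry. CACGTG was in 0 of these 13 windows and in 7.15% of 32851 windows of the same length genome-wide. CACGCG was in 3 of them, against 9.27% genome-wide, namely those of Sox11 and Sox4 in capitals above and that of Sox5. CATTGT was in 3, belonging to Sox5 and Sox6, against 12.6% genome-wide. No match overlapped another. The Sox21 and Sox2 windows held 22 and 27 CpG dinucleotides, against a median of 7 over all windows. High counts were not particular to this pair, with 47 for Sox12, 40 for Sox13, 21 for Sox11 and 12 for Sox4. The Sox5 window held 3 and the Sox6 windows from 2 to 13. These matches are a description of letters and not of binding.

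Signals are linear intensities after the Nmyc9a array was multiplied by 0.977 to set the median log2 ratio to 0. A probe set counted as measured when the mean of both arrays reached a floor of 49.3, the 40th percentile of all signals. For log2 ratios, a signal below the floor was set to the floor, which makes such a ratio a bound. The only error the data hold is how far log2 ratios of 1 gene's probe sets scatter, with a pooled SD of 0.40 over 5671 genes. Mycn, the gene carrying the allele, read 84.8 on the Nmyc9a array and 66.3 on the wildtype array by its brightest probe set, and 85.4 and 51.1 by the next. These signals were not lower in the homozygote and lay near the floor, and where the probes sit relative to the allele is not known here, so the label could not be checked by Mycn. The array is therefore called the array labelled Nmyc9a. The lung identity of both pools was clear from Sftpc, surfactant protein C, at 8964 on the array labelled Nmyc9a and 8639 on the wildtype array.

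Of the 35 Sox probe sets, 27 were measured, and 7 of these were at least 1.5-fold lower and 1 at least 1.5-fold higher on the array labelled Nmyc9a. Over all 22457 measured probe sets with 1 gene, 9.24% were that much lower and 9.31% that much higher. Quantile normalization gave 9 lower and none higher, against 10.9% and 7.31% over all after the same scaling. The values as deposited gave 5 lower and 1 higher, against 7.95% and 10.2% over all. At 2-fold, 4 Sox probe sets were lower and none was higher, against 1.36% lower and 2.39% higher over all. The lower probe sets belonged to Sox21 (2), Sox4 (2), Sox11 (2) and Sox5 (1), and the higher one to Sox5. Of the 7 lower probe sets, 4 reached the floor on the wildtype array alone, so they could differ in that direction only. Among the 22 Sox probe sets at or above the floor on both arrays, 3 were lower and 1 was higher, against 8.89% and 7.91% of all such probe sets. By the brightest probe set of each gene, Sox21 and Sox11 were lower, Sox5 was higher and 6 genes lay within 1.5-fold, while 9.71% of 12600 measured genes were lower and 6.32% higher. After quantile normalization 3 Sox genes were lower and none was higher. The median log2 ratio of the 9 Sox genes was -0.11, close to the -0.09 of all measured genes.

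**Figure D1:**
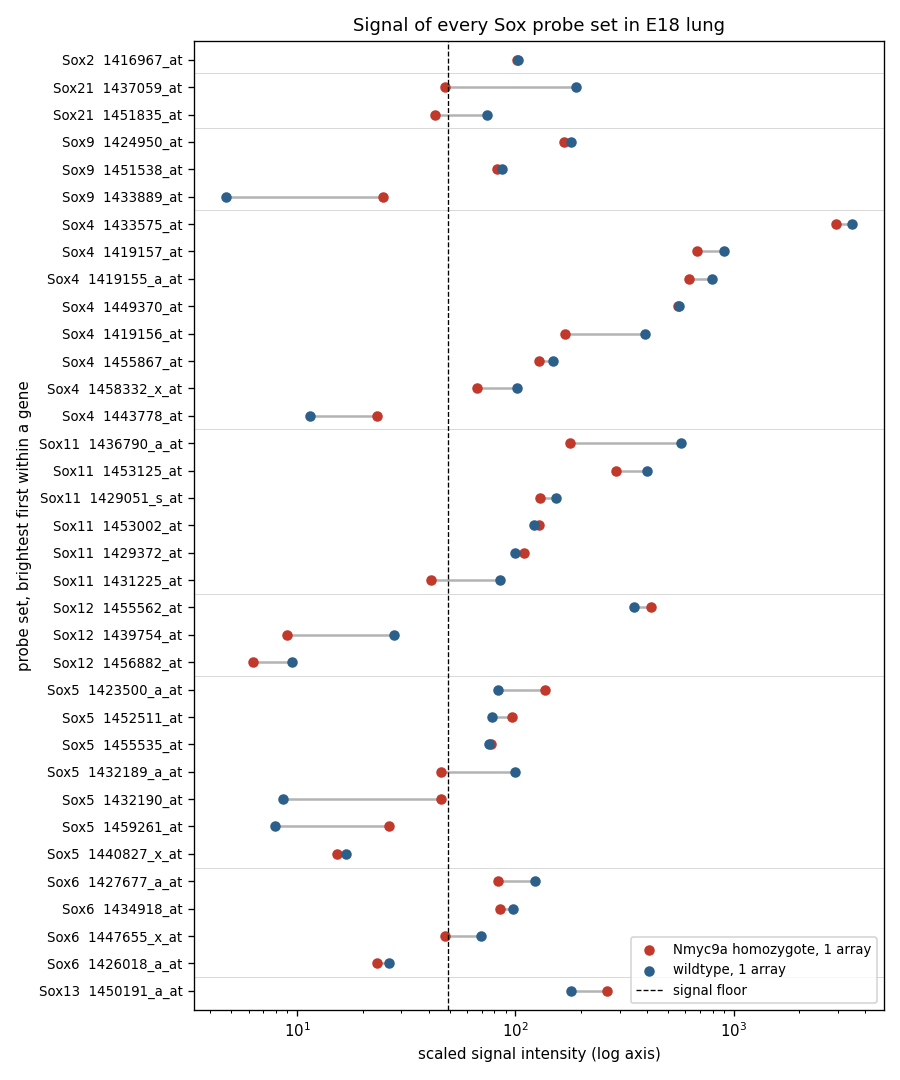
Scaled signal of all 35 Sox probe sets (log axis), with red points for the Nmyc9a array, blue points for the wildtype array and the floor of 49.3 as a dashed line. The pairs of Sox2 and the upper pairs of Sox9 nearly coincide, while Sox21, a Sox4 probe set and the brightest Sox11 probe set are far apart with the Nmyc9a point on the left. Pairs below the floor on both arrays are also far apart in places. The Nmyc9a point is on the right for 1432190_at of Sox5 and 1433889_at of Sox9, and on the left for 1439754_at of Sox12.

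The proximal pair split. Sox2, which the proximal epithelium needs to form basal, secretory and ciliated cells, had 1 probe set on the array. It read 101 on the array labelled Nmyc9a and 103 on the wildtype array, a log2 ratio of -0.02. The arrays were thus nearly equal for Sox2.

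Sox21, a repressor that counters Sox2 and its relatives in neural progenitors, was lower by both of its probe sets. The brighter one, 1437059_at, read 47.8 on the array labelled Nmyc9a and 188 on the wildtype array, so it was at least 3.82-fold lower. The other, 1451835_at, read 43.0 on the array labelled Nmyc9a and 74.4 on the wildtype array, at least 1.51-fold lower. Both fell below the floor on the array labelled Nmyc9a and reached it on the wildtype array alone, so they could differ in that direction only. The bounds of the 2 probe sets, log2 ratios of -1.93 and -0.59, were 1.34 apart, and 2.43% of 3207 genes with 2 measured probe sets had a gap at least that wide. The second bound is limited by its wildtype signal, which left little room above the floor. In whole-lung RNA, fewer cells of a type and less RNA per cell cannot be told apart.

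The distal gene Sox9, which supports the growth of the branching tips and is also the main regulator of cartilage, was nearly equal on the arrays. Its brightest probe set read 166 on the array labelled Nmyc9a and 179 on the wildtype array, a log2 ratio of -0.11. The next read 82.2 and 86.8 on the same arrays, a log2 ratio of -0.08. These 2 probe sets, designed on 1 sequence record, gave log2 ratios 0.03 apart, and the remaining Sox9 probe set lay below the floor on both arrays.

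Setting proximal against distal, the mean log2 ratio of Sox2 and Sox21 minus that of Sox9 was -0.87 by the brightest probe sets. With every measured probe set it was -0.76. The difference came from Sox21. Sox21 minus Sox9 was -1.83 as a bound, whereas Sox2 minus Sox9 was 0.09. The Sox2 to Sox9 difference was smaller than the probe set SD of 0.40, and the Sox21 difference was larger. Among the Sox genes themselves that SD was 0.57, and between the 2 Sox21 probe sets it was 0.95. Such scatter within 1 pair of arrays says nothing of the spread between animals or pools. With the floor at the 60th percentile the contrast shrank to -0.35, since a higher floor loosens the Sox21 bound, which then stood at -0.90 by the brighter probe set. The 6 widely expressed Sox genes had a median of 0.00 by their brightest probe sets, with values from -1.68 for Sox11 to 0.72 for Sox5, so Sox21 was not alone in lying far from 0.

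**Figure D2:**
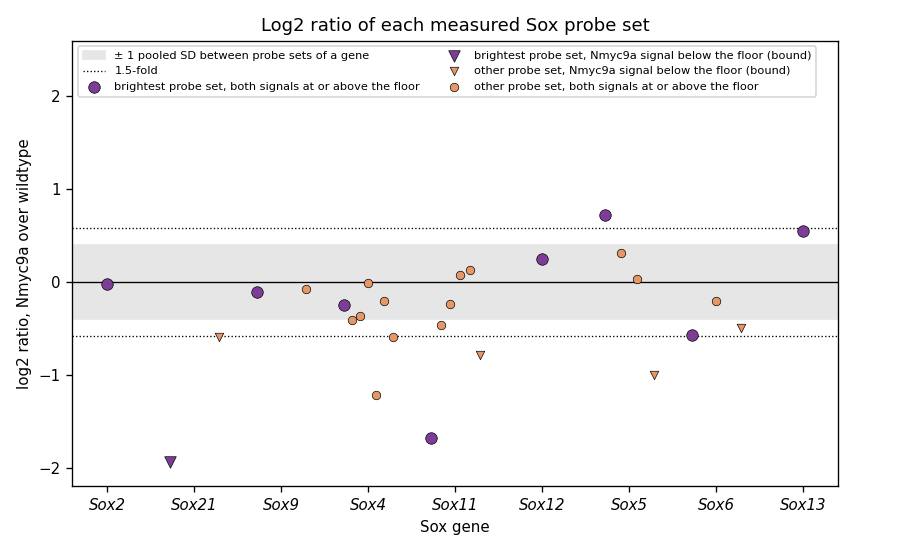
Log2 ratio, Nmyc9a over wildtype, of the 27 measured Sox probe sets by gene, with the brightest probe set of each gene in purple, bounds as triangles, 1.5-fold as dotted lines and ± 0.40, the pooled probe set SD, as a grey band. Sox2 and Sox9 sit inside the band, both Sox21 probe sets lie below it, and Sox4, Sox11 and Sox5 spread widely between their own probe sets.

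Among the SoxC genes, which maintain survival of immature cells, 4 of 14 measured probe sets were at least 1.5-fold lower and none was higher. Over all measured probe sets with 1 gene, 9.24% were that much lower and 9.31% that much higher. Of the 4, the Sox11 probe set 1431225_at reached the floor on the wildtype array alone, so it could differ in that direction only. The median log2 ratio of the SoxC probe sets was -0.30, against -0.05 over all measured probe sets with 1 gene. Of the 14, 11 were below 0, namely 7 of Sox4 and 4 of Sox11. These are repeated readings of the same genes, and the only measured Sox12 probe set was above 0. Sox4 read 2952 on the array labelled Nmyc9a and 3497 on the wildtype array by its brightest probe set, a log2 ratio of -0.24 that was -0.05 after quantile normalization and -0.02 after loess. All 7 measured Sox4 probe sets had a log2 ratio below 0, from -1.22 to -0.01 with a median of -0.36. The probe set 1449370_at, at -0.01, stood at 0.02 in the values as deposited, 0.13 after quantile normalization and 0.16 after loess.

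The lowest Sox4 value came from 1419156_at, at 168 on the array labelled Nmyc9a and 391 on the wildtype array, 2.33-fold lower. The dimmer probe set 1458332_x_at read 66.8 and 101 on these arrays, 1.51-fold lower. Its log2 ratio ran from -0.77 to -0.48 across 6 alternative settings and passed 1.5-fold under 4 of them. A name ending in x marks a probe set whose probes may bind other transcripts. The probe sets 1419157_at and 1419155_a_at stood at -0.41 and -0.36, while 1449370_at stood at -0.01 with 555 on the array labelled Nmyc9a and 559 on the wildtype array. These 3 and 1419156_at were designed on 1 sequence record and still spanned 1.21 on the log2 scale. Over all genes the SD between probe sets of 1 record was 0.31. The probe set 1455867_at read 129 on the array labelled Nmyc9a and 149 on the wildtype array, and the remaining one was below the floor on both. Of the 7 measured Sox4 probe sets, 5 thus lay within 1.5-fold and 1 was over 2-fold lower.

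Sox11 was strongly lower by its brightest probe set and not by the others together. That probe set, 1436790_a_at, read 179 on the array labelled Nmyc9a and 573 on the wildtype array, 3.21-fold lower with both signals above the floor. Of 11849 genes whose brightest probe set reached the floor on both arrays, 4 had a lower log2 ratio. The next, 1453125_at, read 289 on the array labelled Nmyc9a and 399 on the wildtype array, a log2 ratio of -0.47. The dimmest, 1431225_at, read 41.1 and 84.9 on these arrays and was at least 1.72-fold lower.

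The other 3 Sox11 probe sets were nearly equal on the arrays. The probe set 1429051_s_at read 129 on the array labelled Nmyc9a and 153 on the wildtype array, 1453002_at read 128 and 122 on the same arrays, and 1429372_at read 109 and 99.7. The 6 log2 ratios ran from -1.68 to 0.13 with a median of -0.35, below the 1.5-fold size. Of 117 genes with 6 measured probe sets, 5.98% had a range at least as wide as the 1.82 of Sox11. The Sox11 log2 ratio was below 0 by 4 of its 6 probe sets, and its size depended on which of them was read. After quantile normalization all 6 were below 0, with 1453002_at at -0.04 and 1429372_at at -0.01. Each of these 2 probe sets was below 0 under only 1 of 8 alternatives.

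Sox12, the remaining SoxC gene, ran the other way. Its brightest probe set read 416 on the array labelled Nmyc9a and 349.6 on the wildtype array, a log2 ratio of 0.25, inside the probe set SD. Its other 2 probe sets were below the floor on both arrays.

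The SoxD genes, whose proteins pair with each other through a coiled coil and lack an activation domain of their own, showed no common direction. Of their 8 measured probe sets, 4 were above 0 and 4 below, with 1 at least 1.5-fold higher and 1 lower. Over all measured probe sets with 1 gene, 9.31% were that much higher and 9.24% that much lower. Both SoxD probe sets past 1.5-fold belonged to Sox5. Its brightest probe set, 1423500_a_at, read 136 on the array labelled Nmyc9a and 83 on the wildtype array, 1.64-fold higher, or a log2 ratio of 0.57 and just under 1.5-fold after quantile normalization. The probe set 1452511_at read 96.3 and 77.8 on these arrays, and 1455535_at read 77.6 and 75.8.

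Against these 3, the Sox5 probe set 1432189_a_at read 45.6 on the array labelled Nmyc9a and 99 on the wildtype array, at least 2.01-fold lower. It reached the floor on the wildtype array alone, so it could differ in that direction only. A further 3 Sox5 probe sets lay below the floor on both arrays. One of them, 1432190_at, was designed on the same record as 1432189_a_at and has no direction at this floor. The log2 range of the measured Sox5 probe sets was 1.72, and 3.85% of 598 genes with 4 measured probe sets reached that range. The 4 measured Sox5 probe sets thus did not share 1 direction, with 3 above 0 and 1 below. Of these, 1455535_at at 0.03 stood at -0.16 after quantile normalization and -0.14 after loess.

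Sox6, the partner of Sox5, had a log2 ratio below 0 in each of its 3 measured probe sets. The brightest by mean, 1427677_a_at, read 82.8 on the array labelled Nmyc9a and 123 on the wildtype array, a log2 ratio of -0.57. The probe set 1434918_at read 84.8 and 97.6 on these arrays, and 1447655_x_at read 47.5 and 69.3. The last was below the floor on the array labelled Nmyc9a, so its log2 ratio is -0.49 or lower. The other 2 stood at -0.57 and -0.20. After quantile normalization the brightest stood at -0.72 and 1447655_x_at at -0.59 or lower, and after loess they stood at -0.68 and -0.60 or lower, all past 1.5-fold. Sox13, with 1 probe set, read 262 on the array labelled Nmyc9a and 179 on the wildtype array, a log2 ratio of 0.55, just short of 1.5-fold. Of the 11849 genes above the floor on both arrays, 3.14% had a higher value than Sox5 and 6.10% a higher one than Sox13. A value lower than that of Sox6 was held by 10.3%.

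The 8 Sox probe sets that were not measured, belonging to Sox9, Sox4, Sox12, Sox5 and Sox6, read from 6.25 to 45.7 on the array labelled Nmyc9a and from 4.7 to 27.8 on the wildtype array. A further 5 measured Sox probe sets, 18.5% of the 27, reached the floor on the wildtype array alone and none on the array labelled Nmyc9a alone. Over all measured probe sets, 2.69% reached it on the wildtype array alone and 4.66% on the array labelled Nmyc9a alone. The SD of log2 ratios, which holds differences between the pools as well as error, was 0.48 among probe sets with a mean signal from the floor to 100. It was 0.49 from 100 to 200, 0.44 from 200 to 500 and 0.35 at 500 or above. Of the 7 lower Sox probe sets, 4 had a mean signal under 100, 1 lay from 100 to 200 and 2 from 200 to 500.

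**Figure D3:**
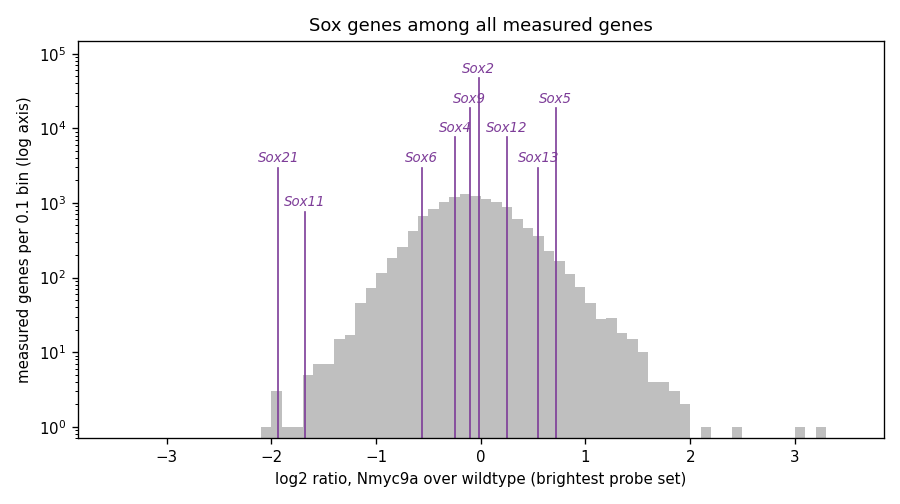
Distribution of the log2 ratio, Nmyc9a over wildtype, over 12600 measured genes by their brightest probe set (grey, log count axis), with the 9 Sox genes as purple lines. Sox21 (a bound) at -1.93 and Sox11 at -1.68 lie in the lower tail, and the other 7 lie between -0.57 and 0.72. Sox5, the highest of them, had 3.83% of measured genes above it.

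Marker genes of the compartments in which these Sox genes act were read beside them by their brightest probe sets. Over all 12600 measured genes, 9.71% were at least 1.5-fold lower and 6.32% at least 1.5-fold higher, the shares against which each list is set. Of 14 measured proximal airway genes, 3 were at least 1.5-fold higher and 2 lower, with a median log2 ratio of 0.03. The higher ones were Scgb3a1, a secretoglobin, at 732 on the array labelled Nmyc9a and 352 on the wildtype array, Foxj1, the regulator of motile cilia, at 230.0 and 141, and Reg3g, an antimicrobial lectin. Reg3g reached the floor on the array labelled Nmyc9a alone, so it could differ in that direction only. The lower ones were Krt19, an epithelial keratin, at 768 on the array labelled Nmyc9a and 1728 on the wildtype array, and Aldh1a1. The proximal markers thus went both ways, from -1.17 for Krt19 to 1.06 for Scgb3a1, and their median was -0.04 without x, s and a probe sets.

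Of 17 measured distal tip genes, 2 were lower and none was higher, against 9.71% and 6.32% of all measured genes. The median log2 ratio was -0.05. Quantile normalization and loess put that median above 0, at 0.03 and 0.08. The lower genes were Clu, clusterin, at 193 on the array labelled Nmyc9a and 520.1 on the wildtype array, and Foxp2, an epithelial repressor, at 331 and 667. At the other end were Mycn at 0.36 and Foxp1 at 0.17.

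Of 14 cartilage genes that Sox9, Sox5 and Sox6 control, 8 were measured, and none passed 1.5-fold either way as scaled here. After quantile normalization 2 were lower, and after loess 1 was. The highest were Acan, aggrecan, with a log2 ratio of 0.48 and Col9a1 with 0.26. The lowest were Matn3 with -0.57 and Hapln1 with -0.44. Their median was -0.10, and -0.30 after either of those scalings, and with no floor the median of all 14 was 0.14. Col2a1, the classic target of Sox9, read 81.4 on the array labelled Nmyc9a and 72.7 on the wildtype array. The summed signal of the 14 genes was 800 on the array labelled Nmyc9a and 831 on the wildtype array, and its part in the Sox9, Sox5 and Sox6 values was not tested.

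Among 7 measured genes listed as SoxC targets, 1 was at least 1.5-fold lower and none higher, against 9.71% and 6.32% of all measured genes. Their median was -0.12. Stmn1, a microtubule regulator that is also high in dividing cells, read 910 on the array labelled Nmyc9a and 1818 on the wildtype array. Dbn1 stood at -0.49, Marcks at 0.15 and Mex3a at 0.22. Tubb3, a neuronal tubulin activated by Sox4 and Sox11, was below the floor on both arrays.

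Genes of dividing cells were lower beside Sox21 and Sox11. Of 24 measured proliferation genes, 20 were at least 1.5-fold lower and none higher, and the median log2 ratio was -0.89. Mcm5 read 93.1 on the array labelled Nmyc9a and 324 on the wildtype array, and Kif23 114 and 291, while Aurkb stood at -0.15 and Tpx2 at 0.47. The summed signal of the 24 genes was 5130 on the array labelled Nmyc9a and 9253 on the wildtype array. The part of this shift in the Sox21, Sox11 and Sox4 values was not tested. By their brightest probe sets, Sox21 stood at -1.93 as a bound and Sox11 at -1.68, and the lowest of the list was Mcm5 at -1.80. The median over the 6 Sox11 probe sets was -0.35.

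Smooth muscle genes and genes of other tissues were read in the same way. Over 12600 measured genes, 9.71% were at least 1.5-fold lower and 6.32% at least 1.5-fold higher. Of 10 measured erythroid genes, in whose lineage Sox6 acts, 2 were lower, none was higher and the median was -0.19. Trim10 read 86.1 on the array labelled Nmyc9a and 219 on the wildtype array, and Slc4a1, the red cell anion exchanger, 354 and 604, while Hbb-y stood at 0.10 and Epor at 0.19. Of 6 smooth muscle genes, 3 were lower, with Myh11 at -1.61, Acta2 at -0.76, Myocd at -0.19 and Des at 0.39. The smooth muscle median was -0.55, and 1 of the genes passed 1.5-fold after quantile normalization. Of 7 liver genes, 5 were higher, with a median of 1.37, Alb at 558 on the array labelled Nmyc9a and 140 on the wildtype array and Afp at 248 and 63.9. Apoa2 at 0.38 and Hpx at 0.32 or higher were the lowest of them. Fga, Ttr, Apoa1 and Hpx reached the floor on the array labelled Nmyc9a alone, so they could differ in that direction only. The liver median is the value of Fga and thus a bound. With the floor at the 60th percentile, 2 liver genes were measured, and both were higher. Summed over all 9 liver genes with a probe set, including those not measured, the signal was 1402 on the array labelled Nmyc9a and 429 on the wildtype array. The part of these tissues in the Sox values was not tested.

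**Figure D4:**
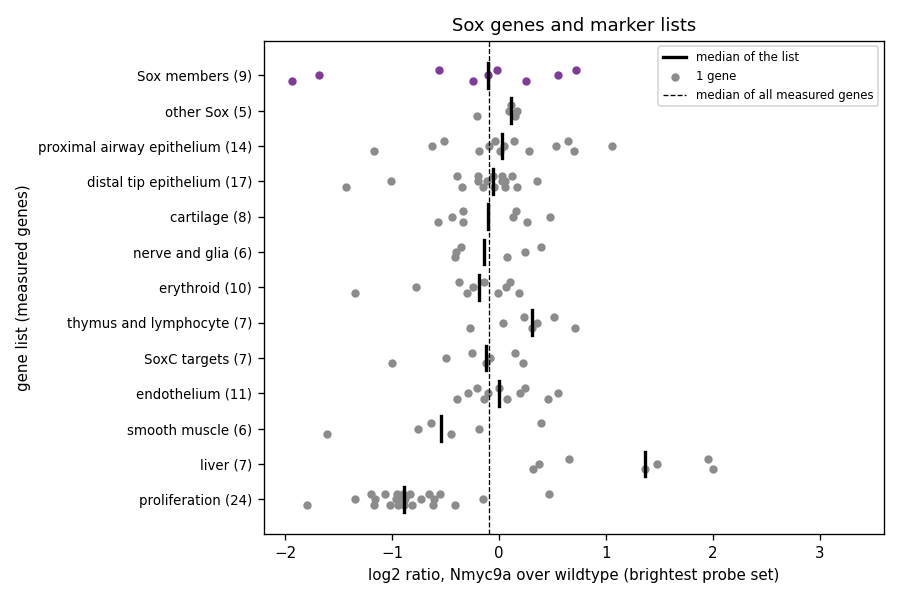
Log2 ratio, Nmyc9a over wildtype, of the 9 Sox genes (purple) and of the measured members of each marker list (grey), with list medians as black bars and the median of all measured genes, -0.09, as a dashed line. The Sox median lies on that line while the proliferation median lies at -0.89, and the Sox genes are spread more widely than the distal tip, cartilage or endothelial genes.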

How the data were processed

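Total RNA from whole lungs was extracted with Trizol and an RNeasy kit, biotin labelled and handled by the Affymetrix labelling protocol, per the labels. The deposited values are linear signal intensities, and the sources used here do not say how the authors computed or scaled them. The deposited intensity had a mean of 150 on both arrays after trimming 2% at each end. Control probe sets (64 of 45101) were left out. Of the rest, 34945 had 1 gene symbol, 932 had several and 9160 had none. Symbols were updated through Entrez identifiers to RefSeq GRCm38.p6 (34741 matched). Scaling, floor and size rules are given above, and the brightest probe set stood for a gene. No test was run, with 1 array per group. The number of arrays limits the precision. Named genes are every Sox probe set and the 2 highest and 2 lowest measured members of each marker list. Beyond that rule, the choice of Sftpc, Reg3g, Col2a1, Tubb3, Fga, Ttr, Apoa1 and the CACGCG motif followed a look at their values. Marker lists were proximal airway, distal tip, cartilage, SoxC targets, proliferation, erythroid, smooth muscle, liver, nerve and glia, thymus and lymphocyte, endothelium and other Sox genes. The members and lists were chosen with earlier results of these data known. The procedure was tested on simulated data. Alternatives were the deposited values, quantile normalization, loess (span 0.3), floors at the 20th and 60th percentile or none, a pseudocount of 20, other probe set choices, and 2-fold and 3-fold sizes. Python 3.11.15, pandas 2.3.3 and statsmodels 0.14.6 were used.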

Additional observations from a re-analysis of the deposited data

How the results depend on the processing

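The median log2 ratio of the Sox genes moved by less than the probe set SD under all 9 alternatives, from -0.17 to -0.07. The count of 8 Sox probe sets at least 1.5-fold apart became 3 of 18 with the floor at the 60th percentile, 14 of 35 with no floor and 4 of 18 without x, s and a probe sets. It was 4 at 2-fold and 2 at 3-fold, and from 6 to 10 under the remaining alternatives. With no floor, 9 were lower and 5 higher, against 13.9% and 17.3% of all probe sets with 1 gene. With the floor at the 60th percentile, 3 were lower and none higher, against 9.01% and 6.14% of all such probe sets. Without x, s and a probe sets, 4 were lower and none higher, against 7.88% and 10.9%. The count of 3 Sox genes was 1 without x, s and a probe sets and 1 with a gene read as the median over its probe sets, where Sox21 remained and Sox11 stood at -0.35. The proximal minus distal difference was -0.35 at that higher floor and lay between -0.94 and -0.55 under the others. As a gene, Sox21 was at least 1.5-fold lower under all 9 alternatives and Sox11 under 7 of 9. The dimmer Sox21 probe set, 1451835_at, was that much lower under 5 of the 7 alternatives that measured it. Sox2 stood above 0 under 1 alternative, at 0.02 with the values as deposited. Sox5 as a gene was above 0 under all 9, from 0.17 to 0.75. No paired analysis was possible because each group has 1 array. Low signal limits Sox21 to bounds on the array labelled Nmyc9a.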

Other observations

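Sox genes outside the 9 lay close to equal on the arrays. Of 11 such genes, 5 were measured by their brightest probe set, none of them 1.5-fold apart, with a median log2 ratio of 0.12. The SoxF genes of endothelium, Sox7, Sox17 and Sox18, stood at 0.17, 0.15 and 0.09. Sox17 read 779 on the array labelled Nmyc9a and 703 on the wildtype array. All 11 endothelial genes lay within 1.5-fold, with a median of 0.00. Their log2 ratios ran from -0.39 for Emcn and -0.29 for Icam2 to 0.46 for Vwf and 0.55 for Flt1. Sox3, a SoxB1 gene like Sox2, stood at -0.21. The genes Sry, Sox1, Sox8, Sox14, Sox15 and Sox30 were below the floor on both arrays.

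Sox10, a SoxE gene of glia and neural crest, gave different answers by probe set. The brightest read 154 on the array labelled Nmyc9a and 142 on the wildtype array, whereas 1451689_a_at read 149 and 60, 2.49-fold higher. None of 6 measured nerve and glia genes passed 1.5-fold, with Ednrb at 0.39, Prph at 0.24, Gap43 at -0.40 and Phox2a at -0.41 or lower (median -0.14). Thymus and lymphocytes are the setting in which Sox13 and Sox4 are best known outside the lung. Of 7 measured genes of this list, Themis was higher at 0.71 and none was lower, against 6.32% and 9.71% of all measured genes. The median was 0.31, with Il7r at 0.51 or higher, Ptcra at 0.04 and Thy1 at -0.27. The RNA antisense to Sox6 and the transcript overlapping Sox2 were below the floor on both arrays.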
